A study of Mus musculus with 9 samples.

Results

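The GIMAP genes (GTPases of immunity-associated proteins) were followed by gene symbol: Gimap1, Gimap3, Gimap4, Gimap5, Gimap6, Gimap7, Gimap8 and Gimap9, which make up 8 of the 24594 genes of the table. All 8 passed the filter on low values (RPKM, reads per kilobase of exon and per 1000000 exonic reads, of at least 1 in at least 2 libraries), as did 11569 genes of the table. RPKM were compared in 9 bulk RNA-seq libraries of semimature CD4 single-positive (SP4) thymocytes, sorted as CD4+ CD8- CD69+ Valpha2+ VBeta5+. The study asked how the transcriptome of these cells depends on the transcription factors Nr4a1 and Nr4a3 when the cells do or do not meet a self-antigen.

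All cells carried the OT-II T cell receptor transgene, which recognizes a peptide of ovalbumin on class II MHC. They developed in lethally irradiated mice 4.7 weeks after transfer of a mixture of marrow from OT-II donors, DKO OT-II donors and non-transgenic wild-type donors. OT-II donors were Nr4a1+/+ Nr4a3+/+ and F1 of BoyJ with B6.Cg-Tg(TcraTcrb)425Cbn/J. DKO OT-II donors were labelled Nr4a1-/- Nr4a3-/- on C57BL/6, so genotype and donor background cannot be told apart. WT hosts were labelled BoyJ. RIPmOVA hosts were labelled F1 of BoyJ with Tg(Ins2-TFRC/OVA)296Wehi/WehiJ mice of the C57BL/6 strain, in which the rat insulin promoter drives membrane ovalbumin, also in medullary thymic epithelium, so by the labels host background differed with the antigen. The methods of the study instead describe WT and RIPmOVA hosts alike as F1 with BoyJ, and which holds for these chimeras was not settled. There were 2 libraries of OT-II and 3 of DKO OT-II from WT hosts, and 2 of OT-II and 2 of DKO OT-II from RIPmOVA hosts. Same-numbered OT-II and DKO OT-II libraries of a host type came from the same chimera, 5 chimeras in all.

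GIMAP proteins bind GTP and are made mainly by lymphocytes. Several are anchored in internal membranes by a C-terminal hydrophobic segment, and members have been tied to lymphocyte survival, mitochondria, lysosomes and autophagy. Mice and rats that lack Gimap5 lose peripheral T cells, and transcripts of the family are known to be more abundant in single-positive than in double-positive thymocytes.

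Recovered depth was 15520000 to 25050000 reads per library. Gene-level RPKM of Nr4a1 was not lower in DKO-labelled libraries (235 to 282 against 229 to 260 in RIPmOVA hosts, 60.1 to 87.7 against 60.7 to 86.1 in WT hosts), and Nr4a3 was 14.1 to 16.5 against 3.72 to 5.66 in RIPmOVA hosts. These sums over all exons do not check the labels, and directions between genotypes rest on them. All 6 T cell markers were present, and their summed level was 1560 to 1630 RPKM in OT-II and 1500 to 1540 in DKO OT-II from WT hosts, above the 1340 to 1390 and 1280 to 1420 of RIPmOVA hosts. CD8 or double-positive thymocyte markers (5 genes) summed to 114 to 123 RPKM in WT hosts, to 79.1 to 106 in OT-II and to 87.5 to 118 in DKO OT-II from RIPmOVA hosts. Of the 4 endothelial markers only Pecam1 passed the filter, and Cdh5, Kdr and Tek stayed at or below 0.63 RPKM. B cell (4 genes), NK cell (3 genes) and thymic epithelial (4 genes) markers summed to at most 10.4, 1.78 and 11.5 RPKM. Erythroid markers (3 genes) summed to at most 14.1 RPKM, with Hba-a1 at 13.9 in the second OT-II and 13.0 in the third DKO OT-II library from WT hosts and at or below 1.24 elsewhere. Macrophage or dendritic cell markers (5 genes) summed to 10.0 to 20.0 RPKM in OT-II from RIPmOVA hosts and 2.36 to 8.91 in the other 7 libraries. In OT-II from RIPmOVA hosts most of it was Lyz2 (18.7 and 8.44 RPKM, 7.54 or less elsewhere). The other 4 (Adgre1, Cd68, Csf1r and Itgax) were at or below 1.49 in every library and did not stand higher in that group. The summed level of Foxp3 and Il2ra was 14.2 to 16.9 RPKM in OT-II from RIPmOVA hosts, 5.33 to 8.58 in DKO OT-II from RIPmOVA hosts and 0.959 to 4.54 in WT hosts. Most of it was Il2ra. In RIPmOVA hosts Foxp3 was 1.90 and 3.31 RPKM in OT-II but 0.092 and 0.077 in DKO OT-II. Reads on sensory receptor genes, used as a measure of background, were 1137 and 513 RPM (reads per 1000000) in OT-II against 505, 1047 and 415 RPM in DKO OT-II from WT hosts. They were 552 and 293 RPM for OT-II against 1042 and 1486 RPM for DKO OT-II from RIPmOVA hosts. Within RIPmOVA hosts, background and genotype cannot be told apart.

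The 8 genes form a cluster on chromosome 6, chr6:48647186-48770851 of GRCm38.p6 (the build that mm10 names), which spans 123.7 kb in the order Gimap8, Gimap9, Gimap4, Gimap6, Gimap7, Gimap1, Gimap5 and Gimap3 in RefSeq. Gimap6 and Gimap3 are read from the minus strand and the others from the plus strand. Start-site windows of RefSeq were found for all 8 genes (9 windows, since Gimap8 has 2), and the 250 bases upstream of the start were searched on both strands. No annotated exon lies in the windows of Gimap3, Gimap5 and Gimap6 and in 1 of the 2 of Gimap8. Of these, the windows of the most abundant member, Gimap3, the least abundant, Gimap5, and Gimap6, read in the direction of Gimap3, are shown. Each is written 5′ to 3′ on the strand of the gene, and capitals mark a match to one of the motifs searched.
Gimap3, chr6:48770852-48771101, minus strand: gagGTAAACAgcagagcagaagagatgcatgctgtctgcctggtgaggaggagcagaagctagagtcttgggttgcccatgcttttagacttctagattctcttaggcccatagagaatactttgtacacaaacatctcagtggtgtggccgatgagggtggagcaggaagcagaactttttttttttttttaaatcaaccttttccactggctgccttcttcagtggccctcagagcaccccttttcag
Gimap5, chr6:48745947-48746196, plus strand: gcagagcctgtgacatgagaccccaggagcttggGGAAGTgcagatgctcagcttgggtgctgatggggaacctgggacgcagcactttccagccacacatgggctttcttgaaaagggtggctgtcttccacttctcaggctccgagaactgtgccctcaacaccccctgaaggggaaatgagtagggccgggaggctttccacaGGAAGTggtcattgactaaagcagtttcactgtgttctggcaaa
Gimap6, chr6:48708245-48708494, minus strand: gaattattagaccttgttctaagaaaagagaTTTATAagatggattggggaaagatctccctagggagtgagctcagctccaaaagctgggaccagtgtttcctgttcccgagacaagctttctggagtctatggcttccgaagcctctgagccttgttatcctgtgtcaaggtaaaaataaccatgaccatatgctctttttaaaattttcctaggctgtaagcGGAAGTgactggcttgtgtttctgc
The capitals in the Gimap3 window match the forkhead motif TGTTTAC, which 1 of the 9 GIMAP windows and 3.17% of all 32851 windows held. Both runs of capitals in the Gimap5 window match the ETS motif GGAAGT, also present once for Gimap6 (2 of 9 windows, 19.7% of all windows). The other capitals in the Gimap6 window match the TATA motif TATAAA on the opposite strand (1 of 9 windows, 12.4% of all windows). The RUNX motif TGTGGT was in the windows of Gimap1, Gimap4 and Gimap7 (3 of 9 windows, 14.0% of all windows). The NBRE motif AAAGGTCA, to which NR4A receptors bind, was in 0 of 9 windows (1.34% of all windows), as were AP-1 TGACTCA (4.46%) and the E-box CAGCTG (13.0%). The motifs share no stretch that makes a match to one a match to another. These are matches of letters in one short window, and say nothing of distal elements.

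GIMAP transcripts were among the abundant transcripts of SP4 thymocytes, and the order of the genes was nearly the same in every library. On the RPKM scale, which is per exon length, the mean of 9 libraries was 254 for Gimap3, 192 for Gimap4, 173 for Gimap6 and 161 for Gimap9. It was 72.1 for Gimap1, 38.3 for Gimap7, 35.2 for Gimap8 and 26.1 for Gimap5. Gimap3 ranked 41st and Gimap5 1746th by mean RPKM in the table, and the 8 genes lay between percentiles 84.9 and 99.6 of the genes tested.

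Neighbours in this order were separated unequally. Gimap9 was 2.23 times Gimap1 and Gimap1 was 1.88 times Gimap7, in 9 of 9 libraries each, so the 4 most abundant genes stood apart from the others. Gimap3 was above Gimap4, Gimap4 above Gimap6 and Gimap8 above Gimap5 in 9 of 9 libraries as well, though Gimap4 and Gimap6 differed by a factor of only 1.11. Gimap6 was above Gimap9 in 8 of 9 libraries, by a mean log2 ratio of 0.11 (SD 0.12, n = 9). Gimap7 was above Gimap8 in 6 of 9 libraries, by a mean log2 ratio of 0.10 (SD 0.22, n = 9), which is less than its spread. The summed RPKM of the family was 789 to 1220 per library, and Gimap3, Gimap4 and Gimap6 together held 62.5% to 67.3% of it.

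The high levels ended at the edges of the cluster. The table held 14 further genes within 200 kb of the outermost members, of which 7 passed the filter. The highest of the 14, Zfp775, a zinc finger gene that lies before Gimap8, had a mean of 3.49 RPKM. Tmem176b, a membrane protein gene that lies beyond Gimap3, had a mean of 3.34 RPKM. No other gene of the table lies inside the cluster. None of the 7 neighbours tested was called in any of the 5 comparisons, where their median log2 differences were between -0.16 and -0.03.

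**Figure D1:**
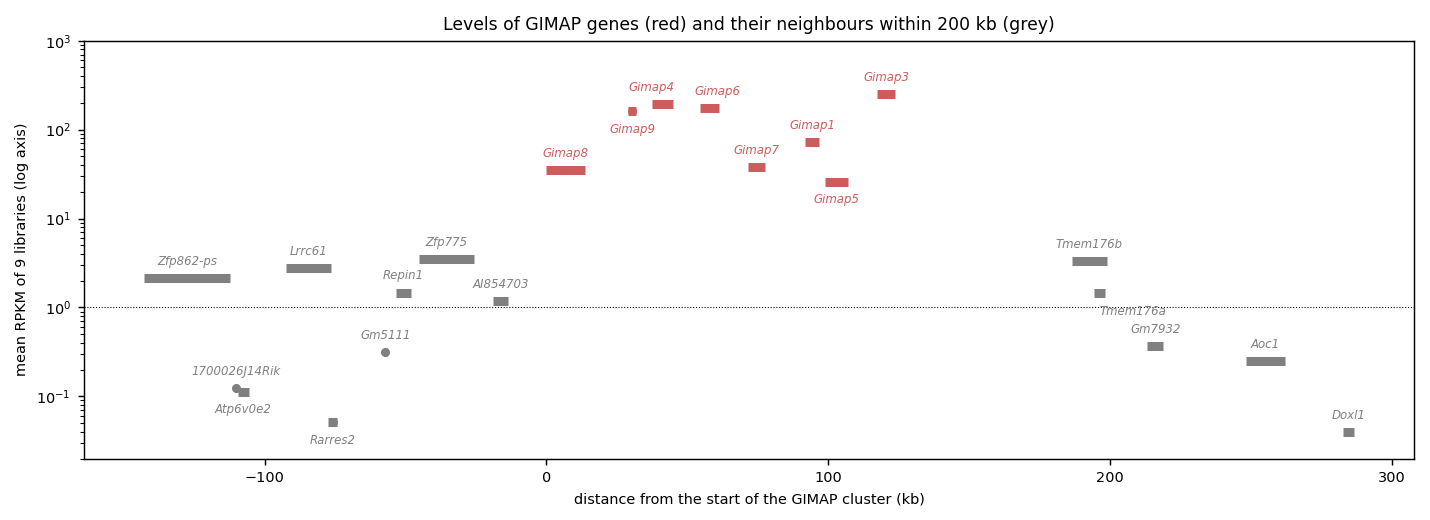
Mean RPKM of 9 libraries on a log axis against the distance from the start of the GIMAP cluster in kb, with a bar for the extent of each gene, a dot at its middle and a dotted line at 1 RPKM. GIMAP genes (red) lie between 26.1 and 254 RPKM, and the 14 neighbours (grey) at or below 3.49 RPKM.

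The levels of Gimap1, Gimap3, Gimap5 and Gimap7 may depend on how reads were assigned, and the use of strand in counting was not stated. In GENCODE, exons of Gimap1 overlap the antisense transcript Gimap1os, and the read-through gene Gm28053 shares exons with Gimap7, Gimap1 and Gimap5. Of all 50-base stretches of its transcripts, 35.5% of those of Gimap1 recur in another gene on either strand, but 5.94% on its own strand. Gimap3 and Gimap5 share 190 such stretches, and 8.15% and 6.84% of theirs recur in another gene. For Gimap7 the share was 1.39%, for Gimap6 0.17%, and for Gimap4, Gimap8 and Gimap9 it was 0.

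Gimap9 was the member whose groups separated most completely. It was 197 and 180 RPKM in OT-II against 147, 158 and 162 in DKO OT-II from WT hosts. In RIPmOVA hosts it was 170 and 172 in OT-II against 122 and 140 in DKO OT-II. Every OT-II library was above every DKO OT-II library, in both hosts, and the 4 groups did not overlap. Between genotypes in RIPmOVA hosts, groups did not overlap for 59.0% of all genes tested in either direction. Between hosts in DKO OT-II it was 40.0%. With the first group lower it was 10.3% between genotypes in WT hosts and 22.1% between hosts in OT-II. The share of genes with all 4 groups apart was not counted. Group means were 189 ± 12.2 (SD, n = 2), 156 ± 7.58 (SD, n = 3), 171 ± 0.955 (SD, n = 2) and 131 ± 12.6 (SD, n = 2) in the same order. DKO OT-II minus OT-II was -0.39 in RIPmOVA hosts on the log2(RPKM + 0.5) scale (SE 0.10, 95% interval -0.60 to -0.17, limma adjusted p = 0.075) and -0.27 in WT hosts (SE 0.09, 95% interval -0.47 to -0.08, limma adjusted p = 0.44). Neither passed the adjusted test. The host differences were -0.14 in OT-II and -0.25 in DKO OT-II (SE 0.10 and 0.09, limma adjusted p = 0.57 and 0.18).

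Gimap5, a member whose loss depletes T cells, had another pattern. It was 29.7 and 24.7 RPKM in OT-II against 22.7, 20.7 and 24.5 in DKO OT-II from WT hosts. In RIPmOVA hosts it was 26.4 and 25.6 in OT-II against 30.4 and 30.4 in DKO OT-II. The 3 DKO OT-II libraries from WT hosts were the lowest and the 2 from RIPmOVA hosts the highest of the 9. Between hosts in DKO OT-II, groups did not overlap in either direction for 40.0% of all genes tested. The host difference in DKO OT-II was 0.42 (SE 0.11, 95% interval 0.18 to 0.66, limma adjusted p = 0.070), which is a ratio of 1.34 on the same scale. In OT-II it was -0.06 (SE 0.12, limma adjusted p = 0.85), and the libraries overlapped. The difference between the host effects, the interaction, was 0.48 (SE 0.16, 95% interval 0.13 to 0.83, limma adjusted p = 0.46).

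Gimap3, which alone among the members shares 50-base stretches with Gimap5 and is the most abundant, was 339 and 275 RPKM in OT-II against 277, 256 and 214 in DKO OT-II from WT hosts. From RIPmOVA hosts, 193 and 220 were measured in OT-II against 214 and 301 in DKO OT-II. OT-II libraries from WT hosts were both above those from RIPmOVA hosts, as for 22.1% of all genes tested. The DKO OT-II libraries of the hosts overlapped. The host difference was -0.56 in OT-II (SE 0.18, 95% interval -0.97 to -0.15, limma adjusted p = 0.19) and 0.04 in DKO OT-II (SE 0.17, limma adjusted p = 0.93).

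Gimap7, whose protein is known to pair with other GIMAP proteins, was the most variable member, with a highest library 2.16 times the lowest. It was 60.7 and 44.8 RPKM in OT-II against 33.6, 38.8 and 28.1 in DKO OT-II from WT hosts. RIPmOVA hosts gave 34.2 and 33.5 in OT-II against 28.2 and 43.2 in DKO OT-II. The 2 OT-II libraries from WT hosts were above the other 7, and the 2 DKO OT-II libraries from RIPmOVA hosts lay on either side of both OT-II libraries. DKO OT-II minus OT-II in WT hosts was -0.64 (SE 0.20, 95% interval -1.09 to -0.19, limma adjusted p = 0.41), and the host difference in OT-II was -0.62 (SE 0.22, 95% interval -1.11 to -0.12, limma adjusted p = 0.23).

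Gimap6, which has been tied to autophagy through Gabarapl2, was 213 and 183 RPKM in OT-II against 163, 166 and 161 in DKO OT-II from WT hosts. In RIPmOVA hosts it was 177 and 172 in OT-II against 140 and 180 in DKO OT-II. The same 2 OT-II libraries from WT hosts were the highest of the 9, so this is not independent of Gimap7. The first of them was the highest of the 9 for 7 of the GIMAP genes. The DKO OT-II libraries from RIPmOVA hosts held the lowest value and the next below those 2. DKO OT-II minus OT-II in WT hosts was -0.27 (SE 0.11, limma adjusted p = 0.58).

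Gimap4, a member tied to the pace of T cell death, was 248 and 205 RPKM in OT-II against 189, 192 and 176 in DKO OT-II from WT hosts. With antigen, in RIPmOVA hosts, it was 177 and 188 in OT-II against 155 and 194 in DKO OT-II. Here too OT-II from WT hosts held the highest libraries, and the other groups overlapped. Its host difference in OT-II was -0.30 (SE 0.13, limma adjusted p = 0.33), and DKO OT-II minus OT-II in WT hosts was -0.28 (SE 0.12, limma adjusted p = 0.60).

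Gimap1, which mature T and B cells need, varied least, with a highest library 1.34 times the lowest. It was 88.8 and 74.1 RPKM in OT-II against 74.9, 66.0 and 70.0 in DKO OT-II from WT hosts. In RIPmOVA hosts it was 66.9 and 68.9 in OT-II against 66.3 and 72.4 in DKO OT-II. Apart from the first OT-II library, all values lay between 66.0 and 74.9. Gimap8, whose protein holds several GTP-binding domains, was 47.1 and 31.7 RPKM in OT-II against 34.4, 35.5 and 27.6 in DKO OT-II from WT hosts. In RIPmOVA hosts Gimap8 was 30.8 and 33.9 in OT-II against 32.8 and 42.5 in DKO OT-II. For Gimap8 the 2 groups overlapped in each pairwise comparison. Over the 5 comparisons the log2 differences of Gimap1 were -0.25 to 0.24 (limma adjusted p of at least 0.33) and those of Gimap8 -0.26 to 0.46 (limma adjusted p of at least 0.57).

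**Figure D2:**
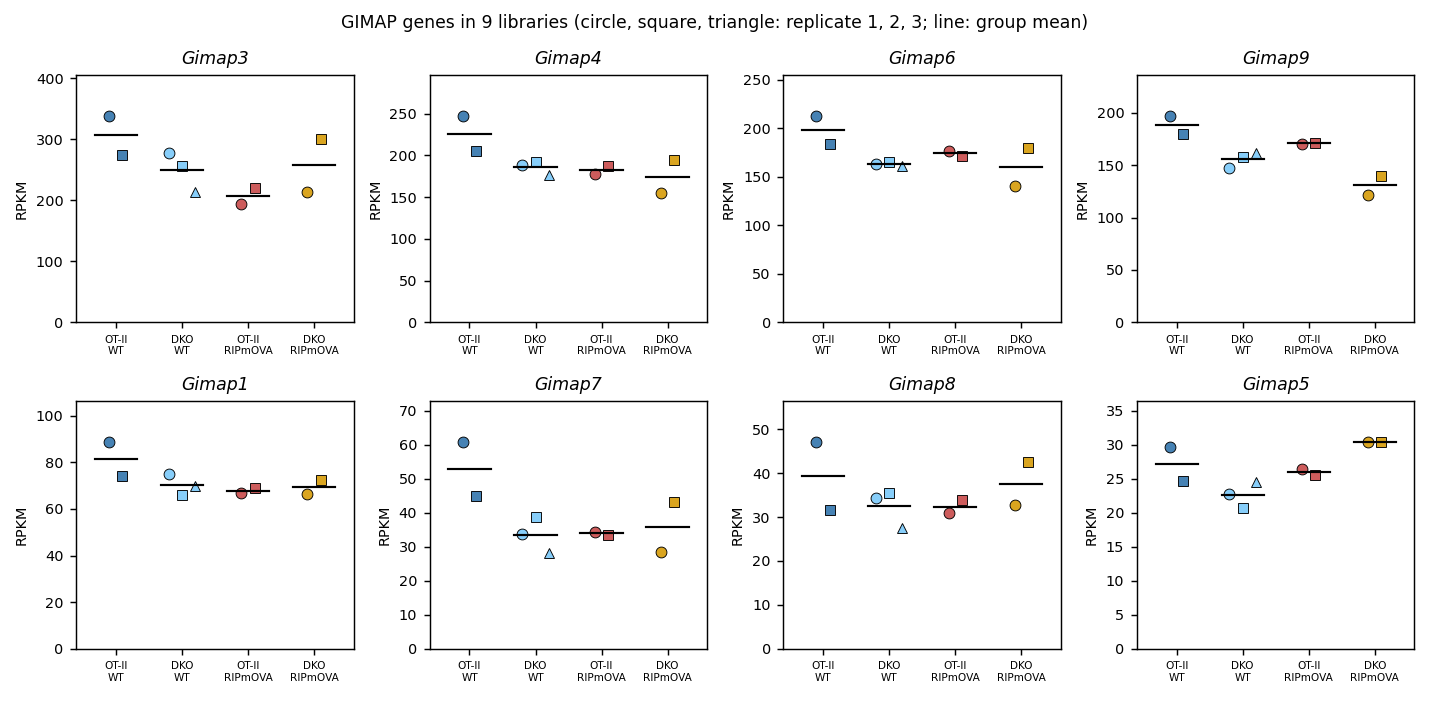
RPKM (linear axes from 0) of the 8 GIMAP genes in each library by genotype (OT-II or DKO OT-II) and host (WT or RIPmOVA), with circles, squares and triangles for replicates 1, 2 and 3 and a line for the group mean. The first OT-II library from WT hosts is the highest of the 9 for 7 genes, and for Gimap9 the 4 groups do not overlap. The share of all genes with 4 groups apart was not counted, and between genotypes in RIPmOVA hosts alone it was 59.0%.

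The first comparison addressed how OT-II cells respond to self-antigen. No GIMAP gene was called in RIPmOVA against WT hosts (0 of 8, limma, adjusted p of at most 0.05 and an absolute log2 difference of at least 1), where 1.23% of all genes tested were called. All 8 differences were below 0, from -0.62 to -0.06, with a median of -0.25, against a median of -0.02 over all genes tested. An unadjusted p under 0.05 with a lower level was found for 4 of 8 (Gimap1, Gimap3, Gimap4 and Gimap7), against 6.92% of all genes, and the groups did not overlap, with RIPmOVA lower, for 6 of 8, against 22.1% of all genes. The intervals of 7 of 8 genes lay within a log2 difference of 1 in either direction, the exception being Gimap7. The first OT-II library from WT hosts carried much of this. It was the shallowest library (15520000 reads), and its GIMAP sum was 1220 RPKM against 789 to 1020 in the other 8. Without it the median difference was -0.10, 6 of 8 differences were below 0 and 0 of 8 had an unadjusted p under 0.05 (limma). Without the second OT-II library from WT hosts the median was -0.41. Foxp3, Il2ra and Lyz2 stood higher and the summed T cell and double-positive markers lower in OT-II of RIPmOVA hosts than of WT hosts, as given above. The T cell sum was thus on the same side as the GIMAP genes, and the part of these cells and markers in the GIMAP differences was not tested. In bulk samples a smaller share of cells with a transcript and less transcript per cell cannot be told apart.

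The same comparison in DKO OT-II asked for the response without Nr4a1 and Nr4a3. Again 0 of 8 GIMAP genes were called, against 1.68% of all genes tested. Differences were above 0 for 4 and below 0 for 4 genes, from -0.25 (Gimap9) to 0.42 (Gimap5), with a median of 0.01 against 0.03 over all genes. An unadjusted p under 0.05 was found for these 2 genes, 2 of 8 against 17.6% of all genes in either direction. They were also the 2 of 8 whose groups did not overlap, which is less than the 40.0% of all genes. All 8 intervals lay within a log2 difference of 1. The 2 libraries from RIPmOVA hosts differed from each other (family sums of 789 and 1000 RPKM), and the median was 0.21 without the first and -0.21 without the second.

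The genotypes were then compared in RIPmOVA hosts, where OT-II cells meet the antigen with and without Nr4a1 and Nr4a3. None of the 8 genes was called, against 1.07% of all genes tested, and all 8 intervals lay within a log2 difference of 1. Differences were from -0.39 (Gimap9) to 0.30 (Gimap3), with a median of 0.04, as over all genes. Gimap9 alone had an unadjusted p under 0.05 with a lower level in DKO OT-II (7.85% of all genes), and Gimap9 and Gimap5 had groups that did not overlap (2 of 8, against 59.0% of all genes in either direction). Without the second DKO OT-II library from RIPmOVA hosts the median was -0.14, and without the first it was 0.16. With the background on sensory receptor genes as a covariate it was -0.20. Pecam1, as nearly the whole of the endothelial sum, differed with genotype (sums of 46.8 to 54.9 RPKM in DKO OT-II, 30.8 to 35.5 in OT-II), while the other 3 endothelial markers stayed at or below 0.63.

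In WT hosts, which lack ovalbumin, DKO OT-II minus OT-II was below 0 for all 8 genes, from -0.64 (Gimap7) to -0.21 (Gimap1), with a median of -0.27 against 0.01 over all genes. No GIMAP gene was called, against 0.0605% of all genes tested. An unadjusted p under 0.05 with a lower level in DKO OT-II was found for 5 of 8 (Gimap4, Gimap5, Gimap6, Gimap7 and Gimap9), against 3.64% of all genes, and the same 5 had groups that did not overlap, against 10.3% of all genes. The interval of Gimap7 alone passed -1. Without the first OT-II library the median was -0.14, with 7 of 8 differences below 0 and 0 of 8 at an unadjusted p under 0.05 (limma). Without the second OT-II library it was -0.40. With the background on sensory receptor genes as a covariate the median was -0.26. Of the OT-II libraries 1 had high and 1 low background, and the cause of these differences was not tested. This comparison and that of OT-II between hosts share the 2 OT-II libraries from WT hosts, so their common direction is not independent.

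The interaction tested whether the host effect differed between genotypes. Of the 8 genes 0 were called, against 0.0173% of all genes tested. The interaction was above 0 for 7 genes and below 0 for Gimap9, with a median of 0.35 against 0.03 over all genes. An unadjusted p under 0.05 with a higher value was found for Gimap3 (0.60), Gimap5 (0.48) and Gimap7 (0.69), 3 of 8 against 5.83% of all genes, with limma adjusted p of 0.52, 0.46 and 0.52. Intervals reached past 1 for Gimap3, Gimap7 and Gimap8 (to 1.15, 1.36 and 1.07), so they include differences of more than 1 for these genes. Without the first OT-II library from WT hosts the median was 0.14 and 0 of 8 had an unadjusted p under 0.05 (limma), and with the background as a covariate it was 0.13.

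**Figure D3:**
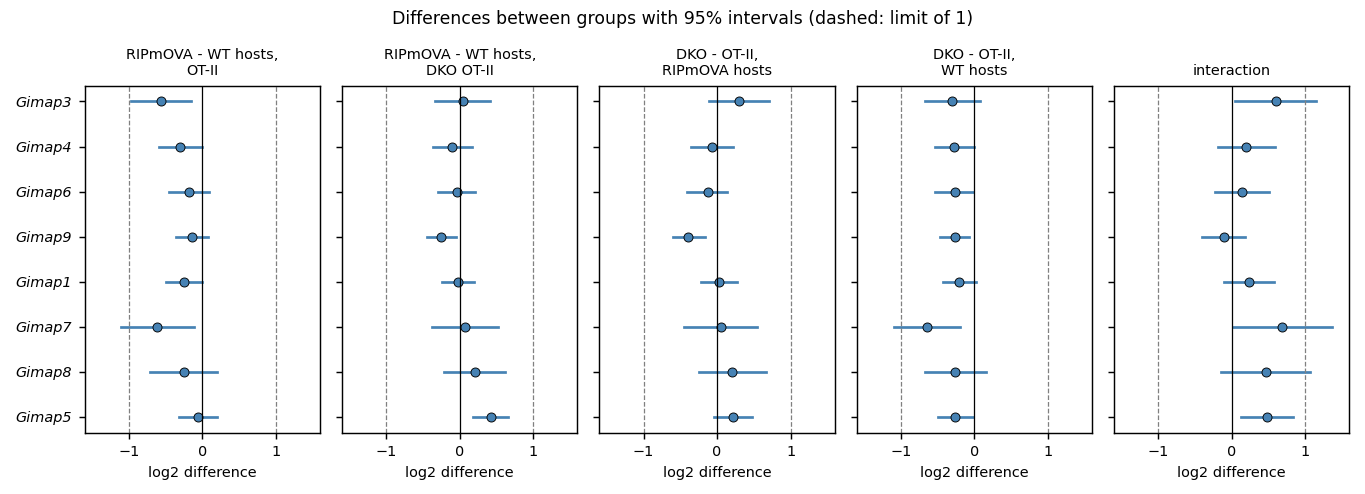
Differences in log2(RPKM + 0.5) of the 8 GIMAP genes in the 5 comparisons, with points for limma estimates, bars for 95% intervals, a solid line at 0 and dashed lines at 1 and -1. Estimates lie between -0.64 and 0.69, and none was called.

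Most pairs of GIMAP genes varied together over the 9 libraries, and Gimap5 was the least like the others. The r of pairs of other genes was not taken. Pearson's r of log2(RPKM + 0.5) had a median of 0.68 over the 28 pairs of genes, was at least 0.5 in 19 pairs and below 0 in 1. The median r of a gene with the 7 others was 0.55 (Gimap9) to 0.81 (Gimap4), but 0.16 for Gimap5. Gimap9 also had a low r with Gimap8 (0.16) and with Gimap3 (0.26). The points share libraries, depth and group, and much of the covariation came from the first OT-II library from WT hosts, without which the median r was 0.36 and 8 pairs were below 0. In that library the genes were 0.19 (Gimap5) to 0.70 (Gimap7) above their own mean on the log2 scale.

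**Figure D4:**
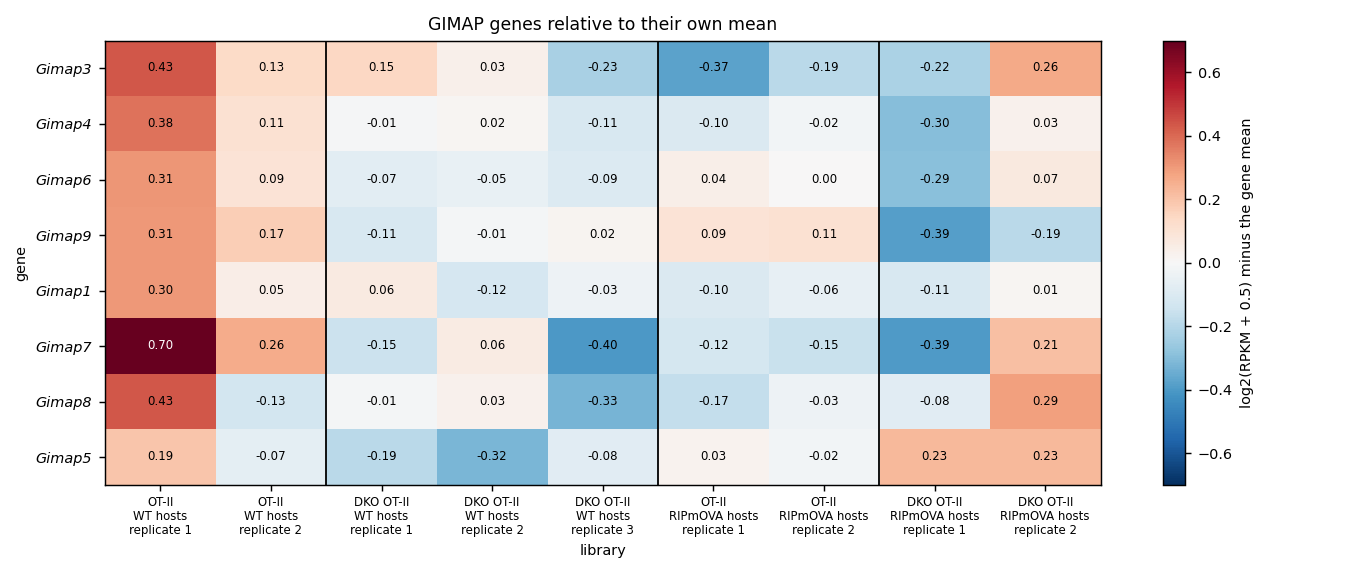
Log2(RPKM + 0.5) of each GIMAP gene (rows) minus its mean of 9 libraries (columns, with lines between groups). The first OT-II library from WT hosts is above the mean for all 8 genes, by 0.19 to 0.70, and Gimap5 is the only gene with both DKO OT-II libraries from RIPmOVA hosts above its mean (0.23 each).

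The mean pattern of the family was compared with 6617 genes of at least 5 RPKM on average. The most alike over 9 libraries were Phf20l1 (r = 0.961), Zfp809 (0.947), Mir1904 (0.943), Cep44 (0.930) and Cd84 (0.920), and the least alike Sdf2l1 (-0.947), Nagpa (-0.934), Lmnb2 (-0.934), Gcc1 (-0.924) and Usp5 (-0.902). Without the first OT-II library from WT hosts r was 0.75 to 0.91 for the first 5 and -0.86 to -0.70 for the last 5. An r of at least 0.9 was reached by 8 genes, 0.121% of those compared.

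Proteins proposed as partners of GIMAP proteins were followed through Bcl2, Bcl2l1, Bax, Gabarapl2 and Gsk3b. None of the 5 genes was called in any of the 5 comparisons. Bcl2, which protects from apoptosis, came nearest to the limits. It was 37.0 ± 2.61 RPKM in OT-II (SD, n = 2) and 35.7 ± 4.62 in DKO OT-II (SD, n = 3) from WT hosts, and 39.8 ± 4.33 in OT-II (SD, n = 2) and 20.9 ± 1.54 in DKO OT-II (SD, n = 2) from RIPmOVA hosts. DKO OT-II minus OT-II in RIPmOVA hosts was -0.91 for Bcl2 (SE 0.13, limma adjusted p = 0.012) and -0.53 for Gabarapl2 (SE 0.10, limma adjusted p = 0.035). Both were past the adjusted test but under the limit of 1 in this fit. For Bcl2 the paper, which used DESeq2, reports a larger decrease in the same comparison, past a log2 fold change of 1. The host difference in DKO OT-II was -0.76 for Bcl2 and -0.42 for Gabarapl2 (limma adjusted p = 0.013 and 0.046). None of the 8 GIMAP genes passed the adjusted test in these comparisons. Both DKO OT-II libraries from RIPmOVA hosts had the high background described above, and its part was not tested for these genes.

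Markers of SP maturation were read as well, because GIMAP levels are known to go up in that step. Of 9 genes that rise with maturation, H2-Q6 was called higher and Ms4a4b called lower in OT-II from RIPmOVA against WT hosts. In DKO OT-II, H2-Q6 and S1pr1 were called higher and Il7r called lower. Ms4a4b and S1pr1, the receptor with which T cells leave the thymus, were called higher in DKO OT-II when genotypes were compared in RIPmOVA hosts, with log2 differences of 1.51 and 1.26 (SE 0.27 and 0.12, limma adjusted p = 0.025 and 0.0020), and 8 of the 9 were above 0 there, with a median of 0.52. The exception was Il7r, the receptor for the survival cytokine IL-7, at -0.87 (SE 0.22, limma adjusted p = 0.081). H2-Q6 has near-identical relatives among class I genes, so its values are uncertain. Of 5 tested genes that fall with maturation (6 listed), Cd24a was called higher in RIPmOVA hosts in OT-II (1.23) and DKO OT-II (1.11), and none was called between genotypes. Cd69 and Sox4 passed the adjusted test between hosts in OT-II, under the limit of 1 (0.47 and 0.73, limma adjusted p = 0.022 and 0.031). So did Cd69 between hosts in DKO OT-II (0.78, limma adjusted p = 0.00077). Sox4 did so between genotypes in RIPmOVA hosts (-0.78, limma adjusted p = 0.024). In WT hosts and in the interaction none of the 9 and none of the 5 was called. Between hosts in OT-II the genes that rise with maturation had a median of -0.29 and the GIMAP genes -0.25. In the same order the medians were -0.03 and 0.01 between hosts in DKO OT-II. Between genotypes they were 0.52 and 0.04 in RIPmOVA hosts and -0.02 and -0.27 in WT hosts. For the interaction they were 0.45 and 0.35. The part of maturation in the GIMAP levels was not tested.

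Interferon-inducible immunity GTPases, another family of immune GTPases, served as a further comparison (14 genes, all tested). Gbp5 was called higher in DKO OT-II from RIPmOVA than WT hosts (1.25, SE 0.27, limma adjusted p = 0.040), the single call among the 14 in the 5 comparisons. In WT hosts 1 of 14 was above 0 in DKO OT-II minus OT-II, with a median of -0.25 beside -0.27 for GIMAP genes. In the interaction 14 of 14 were above 0, with a median of 0.31 beside 0.35 for GIMAP genes. Over all genes tested these medians were 0.01 and 0.03, and the share of genes above 0 was not counted. Both comparisons use the 2 OT-II libraries from WT hosts. For some of the 14 these lay far apart, as for Tgtp1 (156 ± 103 RPKM, SD, n = 2). Without the first of them the GIMAP medians were -0.14 and 0.14, and those of the 14 were not taken. No test of the likeness of the families was run.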

How the data were processed

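Bulk RNA-seq of 9 libraries was analysed from the deposited RPKM of 24594 genes. From sorted cells the authors made SMART-seq v4 cDNA and NexteraXT libraries, aligned paired reads to mm10 with STAR against the GENCODE vM17 transcriptome, removed duplicates with Picard, summed exonic reads per Entrez gene with GenomicRanges in R and divided by exon length and exonic reads of the library (RPKM, 3 decimals). The authors tested groups with DESeq2. Neither the STAR and Picard versions nor the use of strand is given in the sources used here.

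The steps between low RPKM values, each worth 1 read, gave the depth (15520000 to 25050000 reads). With it 100% of low values were whole to within 0.1 read, where chance gives at most 16.1%. The reads carry no molecular identifiers. The 11569 genes that reached an RPKM of 1 or more in 2 or more libraries were fitted as log2(RPKM + 0.5) in a group-means model of all 9 libraries with limma 3.58.1 in R 4.3.3 (intensity trend, two-sided moderated test, Benjamini-Hochberg adjustment over all genes fitted). Differences and ratios are on that scale, which understates those of low genes. Calls needed an adjusted p of at most 0.05 and an absolute log2 difference of at least 1. The fit was tested on simulated data. Plots were drawn with Python 3.11.15 and matplotlib 3.10.9.

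The interaction is the host effect in DKO OT-II minus that in OT-II. Same-numbered libraries of a host type come from the same chimera. In a check of this pairing their deviations from group means correlated at 0.01 and -0.24 in WT hosts and at -0.08 and -0.08 in RIPmOVA hosts, so the pairing rests on the labels alone. The replicate block changed no call among the 8 GIMAP genes, though fewer of all genes tested were called with it. Limma with voom weights on the recovered reads, added after seeing the data, called 0 of 8 GIMAP genes in each comparison. GIMAP genes, the lists of other genes (all named by rule: members, called genes of each list, at most 3 others, and the 5 most and 5 least alike) and the alternatives were chosen with earlier results of these data known. Sequences are from RefSeq (GRCm38.p6), overlaps from GENCODE.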

Additional observations from a re-analysis of the deposited data

Results flagged for a closer look

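Gimap5 had genotype differences of opposite direction in the 2 hosts. In RIPmOVA hosts both DKO OT-II libraries (30.4 and 30.4 RPKM) were above both OT-II libraries (26.4 and 25.6), and in WT hosts all 3 DKO OT-II libraries (20.7 to 24.5) were below both OT-II libraries (24.7 and 29.7). The log2 differences were 0.22 and -0.26, and the interaction, which tests their difference, was 0.48 (SE 0.16, limma adjusted p = 0.46). The interaction did not pass the adjusted test. Between genotypes, groups did not overlap for 59.0% of all genes in RIPmOVA hosts in either direction. In WT hosts it was 10.3% with DKO OT-II lower. Under median-of-ratios rescaling the Gimap5 difference in RIPmOVA hosts was -0.0076. Without the first OT-II library from WT hosts the difference in WT hosts was -0.13.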

How the results depend on the processing

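Over 21 alternative fits, none of 800 values of the 8 GIMAP genes was called, and 764 kept their direction. An adjusted p of at most 0.05 (limma) was reached in 4: Gimap9 between genotypes in RIPmOVA hosts under median-of-ratios rescaling (-0.62, adjusted p = 0.047), and Gimap5 between hosts in DKO OT-II under quantile normalization (0.45, adjusted p = 0.032) and without either OT-II library from WT hosts (0.42, adjusted p = 0.040 each).

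Median-of-ratios rescaling moved the median of all genes from 0.03 to -0.13 (hosts, DKO OT-II), from 0.04 to -0.17 (genotypes, RIPmOVA hosts) and from 0.03 to -0.19 (interaction). GIMAP medians became -0.17, -0.19 and 0.11. Under it Gimap5 reversed between hosts in OT-II (0.0019), Gimap3 (-0.14) and Gimap7 (-0.10) between hosts in DKO OT-II, Gimap1 (-0.20), Gimap5 (-0.0076), Gimap7 (-0.19) and Gimap8 (-0.03) between genotypes in RIPmOVA hosts, and Gimap1 (-7.2e-05), Gimap4 (-0.03) and Gimap6 (-0.10) in the interaction. Under quantile normalization Gimap1 reversed between hosts in DKO OT-II (0.04). With background as a covariate the GIMAP medians were -0.20 between genotypes in RIPmOVA hosts and 0.13 in the interaction, and Gimap3 (-0.09), Gimap7 (-0.23) and Gimap8 (-0.03) between hosts in DKO OT-II, Gimap1 (-0.01), Gimap7 (-0.40) and Gimap8 (-0.15) between genotypes in RIPmOVA hosts and Gimap6 in the interaction (-0.03) reversed. The cause was not tested.

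With the chimera as a replicate block the GIMAP medians were 0.04 (genotypes, RIPmOVA hosts), -0.25 (genotypes, WT hosts) and 0.29 (interaction). With the number across hosts as a replicate block they were -0.25 (hosts, OT-II), -0.05 (hosts, DKO OT-II) and 0.29 (interaction), and Gimap3 (-0.07) and Gimap7 (-0.04) reversed between hosts in DKO OT-II. Numbers across hosts mark different chimeras, and their deviations correlated at 0.10 to 0.23.

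Leaving out 1 library at a time gave GIMAP medians of -0.41 to -0.10 (hosts, OT-II), -0.21 to 0.21 (hosts, DKO OT-II), -0.14 to 0.16 (genotypes, RIPmOVA hosts), -0.40 to -0.14 (genotypes, WT hosts) and 0.14 to 0.49 (interaction). Single genes reversed in some of these fits, with ranges of -0.19 to 0.07 (Gimap5) and -0.54 to 0.03 (Gimap8) between hosts in OT-II, -0.08 to 0.04 (Gimap1), -0.21 to 0.28 (Gimap3), -0.26 to 0.07 (Gimap4), -0.22 to 0.14 (Gimap6) and -0.23 to 0.38 (Gimap7) between hosts in DKO OT-II, -0.03 to 0.09 (Gimap1), -0.24 to 0.09 (Gimap4), -0.31 to 0.05 (Gimap6) and -0.26 to 0.35 (Gimap7) between genotypes in RIPmOVA hosts, -0.54 to 0.03 (Gimap8) between genotypes in WT hosts, and -0.04 to 0.32 (Gimap6) in the interaction. The cause was not tested.

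With 2 or 3 libraries a group, the SE of a GIMAP difference between groups was 0.09 to 0.22. The limit of 1 by itself leaves smaller differences uncalled. Each GIMAP gene had at least 1289 reads per library.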
